A study of Homo sapiens with 10 samples.

Results

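The 10 genes followed here set or mark the switch between epithelial and mesenchymal cell states, across 2 human lung adenocarcinoma cell lines with and without knockout of APEX1, which encodes the base excision repair nuclease APE1. They were chosen by symbol, with earlier results of these data known, as 10 of the 28281 symbols in the count tables. ZEB1, ZEB2, SNAI1, SNAI2, TWIST1 and TWIST2 stand on the mesenchymal side, and GRHL2, OVOL2, ESRP1 and ESRP2 on the epithelial side. Poly(A) RNA was sequenced from 3 A549 libraries labelled APE1 knockout (KO), 3 A549 wild-type (WT) libraries, 2 H1944 KO libraries and 2 H1944 WT libraries. A549 was grown in DMEM and H1944 in RPMI1640 with sodium pyruvate, both with serum and antibiotics, so line and medium cannot be told apart. No treatment is given in the labels, and they do not say whether the KO cells of a line are 1 clone or several, or whether replicate libraries were grown apart. The p-values below thus rest on library-to-library spread that could be purely technical.

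An epithelial cell that turns mesenchymal gives up cell-cell junctions and apical polarity and takes on a matrix-producing, motile form. ZEB and SNAI proteins are zinc-finger repressors that bind E-boxes in the promoters of epithelial genes such as CDH1, the gene of E-cadherin, while TWIST proteins are basic helix-loop-helix factors that act in the same direction. GRHL2 and OVOL2 are transcription factors that hold the epithelial state and oppose ZEB1, and ESRP1 and ESRP2 are RNA-binding proteins that direct the epithelial form of alternative splicing. ZEB proteins repress the genes of the miR-200 family, and these microRNAs repress ZEB mRNAs.

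Library totals ran from 18314224 to 30219850 counts, and levels are given as CPM, counts scaled for effective library size, on 1 scale over all 10 libraries, where 3 counts equal 0.0986 to 0.143 CPM. A count of 0 is read with that upper limit, which covers counting error only. APEX1 itself (chr14:20455226-20457767, GRCh38) had 85.5 and 85.8 CPM in H1944 KO against 240 and 239 CPM in H1944 WT (log2 -1.48, adjusted p = 6.43e-19, edgeR). In A549 KO it had 58.6, 64.3 and 109 CPM, against 165, 264 and 247 CPM in A549 WT. The A549 libraries did not overlap, but edgeR did not call the difference (log2 -1.51, adjusted p = 0.521), while DESeq2 did (adjusted p = 0.00146). The A549 libraries fall into 2 sets that do not follow genotype. KO 65 and WT 1 hold 5945 and 4839 counts of the ribosomal gene RNA28SN4 and under 1% ribosomal RNA genes in all, while KO 16, KO 66, WT 2 and WT 3 hold 0 counts of it and 6.45% to 14.2% of such genes. The lung adenocarcinoma marker list, mostly the keratins KRT8 and KRT18, summed to 11500 to 25700 CPM in A549 KO, 10400 to 26400 in A549 WT, 17100 to 17600 in H1944 KO and 9400 to 9550 in H1944 WT. Of its 6 genes tested in H1944, KRT8 and KRT18 were called higher in KO (edgeR). EPCAM and NAPSA were called lower, by 73.9-fold and 10.6-fold. Over all tested genes 33.2% were called higher and 33.9% lower. NKX2-1, the lung lineage factor on that list, had 0 counts in H1944 and at most 3 in an A549 library. The 10 fibroblast markers summed to 15 to 26.8, 11 to 15, 14.3 to 16.3 and 15.2 to 16.6 CPM in the same 4 groups, with COL1A2 and DPT at 0 in A549 KO, A549 WT and H1944 KO and DPT and THY1 at 0 in H1944 WT. These sums hide opposite changes in H1944. Of 6 fibroblast markers tested there, COL3A1, FAP and DCN were called higher in KO and COL1A1 lower (edgeR), beside the same shares of all genes. Leukocyte markers summed to 57.1 to 59.5 CPM in H1944 KO, 34.1 to 35 in H1944 WT, 43.6 to 45.9 in A549 KO and 38.1 to 52.3 in A549 WT, with CD3E, CD2 and MS4A1 at 0 in every group, and endothelial markers to 0.641 to 2.54 CPM. Most of the leukocyte sum in H1944 was CD68, at a mean of 52.3 CPM in KO and 27 CPM in WT. Of the 3 leukocyte markers tested in H1944 it was the 1 called higher, and ITGAM and CD14 did not pass (edgeR). PTPRC had 0 counts in H1944 KO and 14 in H1944 WT. The sums of the keratin-led and leukocyte lists were higher in H1944 KO than in H1944 WT, and their part in the results below was not tested. In these bulk libraries a change in the share of cells in one state and a change in RNA per cell cannot be told apart.

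In H1944 all 6 mesenchymal regulators rose on knockout, by 1.62-fold to 9.7-fold, and 2 of the 4 epithelial regulators, OVOL2 and ESRP1, fell by more than any mesenchymal member rose. ESRP2 did not pass the test and GRHL2 was too low to test. Of the 9 members tested 8 were called at an adjusted p under 0.05 (edgeR quasi-likelihood test, Benjamini-Hochberg over all genes), where 67.1% of the 16626 tested genes were called, 33.2% as higher in KO and 33.9% as lower. A call alone is therefore common in H1944, while a change of at least 2-fold was called higher in 10.1% of genes and lower in 11.3%. Of the 6 mesenchymal members 5 exceeded 2-fold, all but SNAI1, as did both called epithelial members. KO and WT libraries did not overlap for any of the 9 tested members, nor for 82.5% of all tested genes. The spread of the replicates was small there, with a biological coefficient of variation of 4.74%. The call of ZEB1, ZEB2, SNAI1 and SNAI2 rests on the H1944 spread alone: in a fit of all 10 libraries, which share the larger spread of A549, their adjusted p-values were 0.107, 0.25, 0.313 and 0.176 (edgeR).

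**Figure D1:**
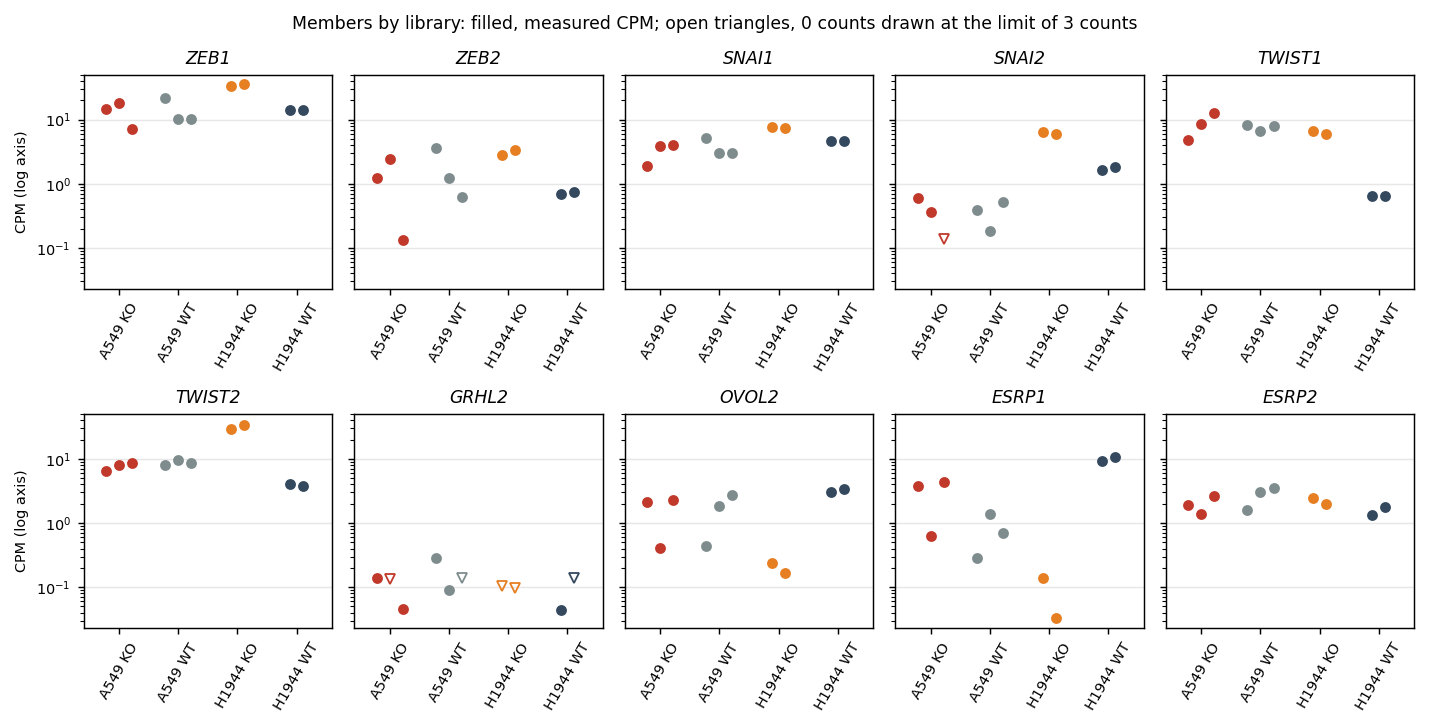
Level of each regulator in every library in CPM on a log axis, with A549 KO, A549 WT, H1944 KO and H1944 WT from left to right in each panel. Filled points are measured values and open triangles are libraries with 0 counts, drawn at the limit of 3 counts. In H1944 the KO points stand above the WT points for all 6 mesenchymal regulators and below them for OVOL2 and ESRP1, and in A549 the KO and WT points overlap in every panel.

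ZEB1, the zinc-finger homeobox repressor of CDH1 and of the miR-200 genes, lies at chr10:31318417-31529804 (GRCh38). It had 970 and 1085 counts in H1944 KO, or 33.5 and 35.6 CPM, against 325 and 300 counts in H1944 WT, or 14.1 and 14 CPM. The KO libraries were both above the WT libraries, by 2.46-fold (log2 1.30, SE 0.0812, adjusted p = 5.44e-12, edgeR). The antisense lncRNA ZEB1-AS1 overlaps the start of ZEB1, and without strand information reads of the pair cannot be told apart. ZEB1-AS1 had 160 and 191 counts in H1944 KO (5.9 ± 0.525 CPM), against 196 and 199 in H1944 WT (8.91 ± 0.56 CPM; SD, n = 2 each), so its libraries were lower in KO where those of ZEB1 were higher. Its paralog ZEB2, at chr2:144384081-144520119, was much lower. ZEB2 had 80 and 101 counts in H1944 KO (2.77 and 3.32 CPM), against 16 in each H1944 WT library (0.695 and 0.748 CPM). The groups did not overlap, and ZEB2 rose 4.2-fold (log2 2.07, SE 0.303, adjusted p = 3.52e-06, edgeR). Per kilobase of exon ZEB1 stood at 5.38 CPM in H1944 KO and 2.19 in H1944 WT, and ZEB2 at 0.228 in H1944 KO and 0.054 in H1944 WT, so ZEB1 was the more abundant transcript in both.

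ZEB1 and ZEB2 are the textbook targets of the miR-200 family, whose mature sequences are shown because the seed, bases 2 to 8 in capitals, splits the family into 2 groups (RefSeq, GRCh38.p14).
hsa-miR-200a-3p: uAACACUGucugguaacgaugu
hsa-miR-141-3p: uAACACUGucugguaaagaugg
hsa-miR-200b-3p: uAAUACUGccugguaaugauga
hsa-miR-200c-3p: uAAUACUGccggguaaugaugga
hsa-miR-429: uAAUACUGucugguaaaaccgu
The first pair shares the seed AACACUG and the other 3 the seed AAUACUG, which differ at 1 base. miR-200a, miR-200b and miR-429 come from 1 cluster on chromosome 1, and miR-141 and miR-200c from another on chromosome 12. Poly(A) gene counts do not measure mature microRNAs. The host transcript of the chromosome 12 cluster, MIR200CHG, was counted at a low level, with 0 and 0 counts in H1944 KO against 6 and 7 in H1944 WT. Its H1944 WT mean was 2.91-fold above the limit of 3 counts per H1944 KO library, and it was too low to test. In A549 it had 1 count in KO 66 and 0 in the other 5 libraries, and MIR205HG, host of another ZEB-targeting microRNA, had 0 counts in all 10.

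The 3′UTR of ZEB1 (2549 bases in GENCODE v29) holds 3 matches to CAGTGTT, the complement of the first seed, and 6 to CAGTATT, the complement of the other. ZEB2 holds 4 and 5 in 5370 bases. These come to 3.53 matches per kilobase in ZEB1 and 1.68 in ZEB2, against 0.253 over all 19652 annotated 3′UTRs, of which 27.4% hold at least 1 match of either kind. ESRP1 holds 2 matches, SNAI2 and GRHL2 1 each, and the other 5 members none. One site of each kind is printed for each ZEB gene, in transcript direction, with the match in capitals (GENCODE v29, GRCh38). They lie at chr10:31528031-31528060 and chr10:31527618-31527647 on the plus strand and at chr2:144389229-144389258 and chr2:144389045-144389074 on the minus strand.
ZEB1 first kind: caaaatcatcagaatCAGTGTTtgtgattg
ZEB1 other kind: attgttttatcttatCAGTATTatcactct
ZEB2 first kind: tgcaaaaattttgtaCAGTGTTaaggccta
ZEB2 other kind: cgcactaccatacatCAGTATTtttattat
A match is a description of the letters and not a measured binding site.

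Of the members 3 have promoter windows in the RefSeq table, taken here as the 250 bases before an annotated start and searched on both strands. The E-box CANNTG occurs in 61.8% of all 35116 windows, its form CAGGTG, which ZEB and SNAI proteins bind, in 17.5%, and a G-quadruplex motif of 4 runs of at least 3 G spaced by 1 to 7 bases in 23.5%. The first of 7 ZEB1 windows, ahead of the gene's outermost start at chr10:31318167-31318416 on the plus strand (GRCh38.p14), is shown because it holds 1 match to CAGGTG among 2 to CANNTG, in capitals.
ZEB1 window: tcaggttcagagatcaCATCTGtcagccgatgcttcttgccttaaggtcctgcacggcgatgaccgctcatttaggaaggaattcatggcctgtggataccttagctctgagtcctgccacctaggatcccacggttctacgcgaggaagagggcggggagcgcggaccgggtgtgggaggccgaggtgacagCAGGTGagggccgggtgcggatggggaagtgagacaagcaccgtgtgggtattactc
Bases shortly after the start that this first window precedes were found in 0 GENCODE v29 transcripts of ZEB1, and those of the third window in 4. The third ZEB1 window holds 2 matches to CAGGTG and 1 G-quadruplex motif. The ZEB2 window has 1 match to CANNTG and neither of the other motifs, and the TWIST2 window has none of the 3.

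SNAI1, the Snail repressor at chr20:49982980-49988886, changed least of the called members. It had 219 and 226 counts in H1944 KO (7.57 and 7.42 CPM), against 105 and 100 in H1944 WT (4.56 and 4.68 CPM). It was higher in both KO libraries, by 1.62-fold (log2 0.70, SE 0.16, adjusted p = 0.000611, edgeR). SNAI2, which encodes Slug and lies on chromosome 8, had 186 and 184 counts in H1944 KO (6.43 and 6.05 CPM), against 38 and 39 in H1944 WT (1.65 and 1.82 CPM). Its groups were well apart, with a 3.59-fold rise (log2 1.84, SE 0.205, adjusted p = 6.73e-08, edgeR). The third family member SNAI3 stayed low, at 1.59 ± 0.776 CPM in H1944 KO and 0.501 ± 0.217 CPM in H1944 WT (SD, n = 2 each), and was called higher (log2 1.67, adjusted p = 0.00232, edgeR).

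The TWIST genes rose most. TWIST1 (chr7:19113047-19117636), a basic helix-loop-helix factor of neural crest and mesoderm, had 194 and 184 counts in H1944 KO (6.71 and 6.05 CPM), against 15 and 14 in H1944 WT (0.652 and 0.655 CPM). That is 9.7-fold higher in KO (log2 3.28, SE 0.247, adjusted p = 1.27e-10, edgeR). TWIST2 (chr2:238848085-238910534), its close relative, had 862 and 1018 counts in H1944 KO (29.8 and 33.4 CPM), against 94 and 80 in H1944 WT (4.08 and 3.74 CPM). It rose 8.07-fold (log2 3.01, SE 0.111, adjusted p = 4.7e-16, edgeR), the smallest adjusted p among the members. Per kilobase of exon TWIST2 was the most abundant member in H1944 KO, at 16.8 CPM, where ZEB1 followed at 5.38, SNAI1 at 4.45 and TWIST1 at 3.83. SNAI2 at 2.57, ESRP2 at 0.572, ZEB2 at 0.228, OVOL2 at 0.131 and ESRP1 at 0.0221 came after them, and no neighbours in this order overlapped between libraries. In H1944 WT the order began with SNAI1 at 2.74, ESRP1 at 2.6, ZEB1 at 2.19, OVOL2 at 2.09 and TWIST2 at 2.08 CPM per kilobase, where SNAI1 overlapped with ESRP1, and ZEB1, OVOL2 and TWIST2 with their neighbours. It went on with SNAI2 at 0.715, ESRP2 at 0.407, TWIST1 at 0.392, ZEB2 at 0.054 and GRHL2 at 0.0041, with ESRP2 and TWIST1 overlapping.

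On the epithelial side OVOL2 (chr20:18024152-18059188), a zinc-finger repressor of ZEB1, had 7 and 5 counts in H1944 KO (0.242 and 0.164 CPM), against 71 and 73 in H1944 WT (3.08 and 3.41 CPM). It was 15.7-fold lower in KO (log2 -3.97, SE 0.384, adjusted p = 7.37e-09, edgeR). ESRP1, on chromosome 8, had 4 and 1 counts in H1944 KO (0.138 and 0.0329 CPM), against 216 and 230 in H1944 WT (9.38 and 10.8 CPM). It was near the detection limit in both KO libraries and 113-fold lower by the fit (log2 -6.82, SE 0.332, adjusted p = 6.71e-14, edgeR). With so few KO counts the size rests on single libraries, at -8.05 without H1944 KO 1 and -6.13 without H1944 KO 2 on the log2 scale. The ratio of the depth-scaled summed counts, WT over KO, was 119, with a 95% interval of 50.7 to 369 that covers counting error only. OVOL2 and ESRP1 passed the filter on low counts only through the WT libraries. The related splicing factor ESRP2 (chr16:68229033-68236127) was not called. ESRP2 had 70 and 60 counts in H1944 KO (2.42 and 1.97 CPM), against 31 and 38 in H1944 WT (1.35 and 1.78 CPM). The libraries do not overlap, but the difference did not pass the test (log2 0.49, SE 0.288, adjusted p = 0.139, edgeR). The last bases of ESRP2 overlap the end of NFATC3. GRHL2, on chromosome 8, had 0 counts in both H1944 KO libraries and 1 and 0 in H1944 WT, so it was not detected at a level that allows a comparison.

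Per kilobase of exon the balance of the 2 ESRP genes turned round: in H1944 KO ESRP1 stood at 0.0221 CPM and ESRP2 at 0.572, while in H1944 WT ESRP1 stood at 2.6 and ESRP2 at 0.407. Gene counts do not show splicing itself. Of 12 genes whose transcripts are known ESRP splicing targets 11 were tested, with 4 higher, 4 lower and 3 not called, shares near those of all genes (33.2% higher and 33.9% lower). CD44, the hyaluronan receptor on that list, stood at 320 ± 1.95 CPM in H1944 KO and 98.6 ± 1.8 CPM in H1944 WT (SD, n = 2 each), and rose 3.24-fold (adjusted p = 5.05e-20, edgeR). Of 11 other splicing factors tested 6 were called, fewer than the 67.1% of all genes, and all 6 fell, led by RBM47 (log2 -1.57, adjusted p = 7.33e-19, edgeR).

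Genes known as targets of these factors, or as markers of the 2 states, also changed in H1944. Of 28 epithelial junction, polarity and surface genes 25 were tested, 24 fell and none rose, where 33.9% of all tested genes fell and 33.2% rose. The median log2 change was -2.74 beside -0.00648 over all tested genes. CDH1 was 26.3-fold lower, at 7.86 ± 0.263 CPM in H1944 KO and 207 ± 0.423 CPM in H1944 WT (SD, n = 2 each, adjusted p = 6.71e-25, edgeR). EPCAM, an epithelial adhesion molecule, was 73.9-fold lower, at 0.931 ± 0.248 CPM in H1944 KO and 68.8 ± 1.86 CPM in H1944 WT. The vesicle protein MAL2 was 439-fold lower, and S100A14 and LSR, a tricellular junction protein, had log2 changes of -6.02 and -3.65, all called by edgeR. The 1 tested gene of this list that did not pass was JUP, the gene of plakoglobin, at 78 ± 0.868 CPM in H1944 KO and 78.7 ± 1.76 CPM in H1944 WT (adjusted p = 0.797, edgeR), named after its value was seen.

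Of 28 mesenchymal genes 25 were tested, 22 rose and 1 fell, where 33.2% of all tested genes rose and 33.9% fell. Their median log2 change was 1.39. SPARC, a matrix glycoprotein, stood at 230 ± 2.48 CPM in H1944 KO and 0.272 ± 0.0779 CPM in H1944 WT (log2 9.71, adjusted p = 7.65e-26, edgeR). FN1, the gene of fibronectin, rose 34.7-fold to 239 ± 6.68 CPM in H1944 KO, against 6.88 ± 0.214 CPM in H1944 WT (SD, n = 2 each). The gelatinase MMP2 rose 23.4-fold, the collagen gene COL6A1 11-fold and VIM, the gene of the intermediate filament vimentin, 3.39-fold, all called by edgeR. The members that went otherwise, named after their values were seen, were the membrane protease MMP14, which fell (log2 -2.21, adjusted p = 7.25e-07, edgeR), and LOX and CDH2, which did not pass. CDH2, the gene of N-cadherin, was near 1 CPM in both groups, at 0.984 ± 0.56 CPM in H1944 KO and 1.18 ± 0.189 CPM in H1944 WT (adjusted p = 0.61, edgeR; SD, n = 2 each).

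**Figure D2:**
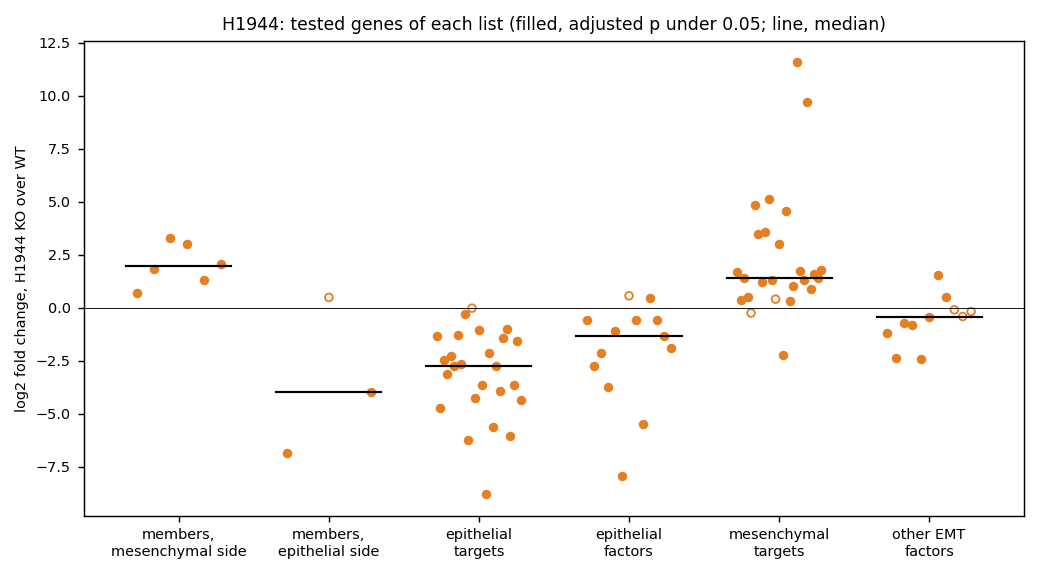
Log2 fold change, H1944 KO over H1944 WT, of the tested genes of 6 lists, with filled points for an adjusted p under 0.05 and a line at each list's median. The 6 mesenchymal members lie above 0 around a median of 1.96, the epithelial targets lie at or below 0 around -2.74, the mesenchymal targets lie mostly above 0 around 1.39, and the other EMT factors spread about -0.446.

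Factors beside the members did not all move with them. Of 13 tested epithelial lineage factors 11 fell and 1 rose, where 33.9% of all tested genes fell and 33.2% rose. Their median log2 change was -1.31. The ETS factors EHF and ELF3 fell 6.77-fold and 4.36-fold, and the pioneer factor FOXA1 2.1-fold, all called by edgeR. FOXA2 had 0 counts in H1944 KO against 15 and 37 in H1944 WT. Its WT mean was 11.8-fold above the limit of 3 counts per KO library, with the WT libraries apart at 0.652 and 1.73 CPM. FOXA2, KLF4 and GATA6 were named after their values were seen. KLF4 was the 1 that rose (log2 0.46, adjusted p = 7.91e-07, edgeR), and GATA6 did not pass. Of 11 other factors linked to epithelial-mesenchymal transition 6 fell and 2 rose, beside the same shares of all genes, with a median of -0.446. Among them FOXC2 fell 5.09-fold, KLF8 5.39-fold and FOXC1 2.29-fold, while PRRX2 (log2 1.57, named after its value was seen) rose, all called by edgeR.

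Relatives and partners of the members split as well. Of 9 tested 4 rose and 3 fell, with a median log2 change of 0.0168, beside 33.2% and 33.9% of all genes. ID2 and ID3, inhibitors that bind the E-protein partners of TWIST1, rose 2.58-fold and 1.7-fold, and the E-protein genes TCF4 and TCF12 fell by 0.75 and 0.36 on the log2 scale, all called by edgeR. GRHL1, the relative of GRHL2, fell 2.71-fold, to 1.58 ± 0.0857 CPM in H1944 KO, against 4.3 ± 0.734 CPM in H1944 WT (SD, n = 2 each, adjusted p = 2.12e-05, edgeR). GRHL3 was low in both H1944 groups, at 0.166 CPM in KO and 0.18 CPM in WT, and OVOL1 had 0 and 4 counts in KO against 7 and 9 in WT. Of 12 corepressors that ZEB and SNAI proteins use 2 rose, 4 fell and 6 did not pass, a smaller called share than the 67.1% of all genes. AJUBA, a LIM protein that binds SNAI1, fell 1.87-fold and EZH2, the histone methyltransferase of the polycomb complex, 1.64-fold, while the largest rise in the group was HDAC2 at 1.29-fold, all called by edgeR. Of 9 tested genes that control the turnover of SNAI proteins 4 were called, again under the share of all genes, and those 4 rose, among them the ubiquitin ligase subunit BTRC (1.41-fold), the kinase CSNK1D (1.43-fold) and the deubiquitinase USP27X (1.89-fold).

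Of 18 tested genes of the TGF-beta and BMP pathway, the best known inducer of SNAI and ZEB genes, 8 rose and 7 fell, with a median log2 change of 0.231, where 33.2% of all genes rose and 33.9% fell. The ligand gene TGFB1 stood at 59.3 ± 5.55 CPM in H1944 KO and 17.6 ± 0.418 CPM in H1944 WT (SD, n = 2 each), and rose 3.36-fold (adjusted p = 8.15e-15, edgeR). The receptor genes TGFBR2 and TGFBR3 rose 2.12-fold and 3.3-fold, and the signal transducers SMAD2 and SMAD4 fell 1.68-fold and 2.07-fold, all called by edgeR.

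In A549 no member was called, and the KO and WT libraries overlapped for all 10. Of the 15806 genes tested in A549 0.00633% were called in all, and 10.6% had KO and WT libraries that do not overlap. At an unadjusted p under 0.05 stood 5.66% of all genes and 1 of 9 tested members, ESRP1. DESeq2 called 125 genes in A549 and no member. The biological coefficient of variation was 39%, and SEs of the tested members ran from 0.21 for TWIST2 to 0.992 for SNAI2 on the log2 scale. For SNAI1 the SE in A549 was 0.407, beside a log2 change of 0.70 in H1944. What size of change could be detected was not tested, and the absence of calls does not show that levels were alike.

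ZEB1 had 14.6, 18.2 and 7.18 CPM in A549 KO 16, 65 and 66, against 21.9, 10.1 and 10.2 CPM in A549 WT 1, 2 and 3 (log2 -0.07, SE 0.461, adjusted p = 0.995, edgeR). ZEB2 had 1.24, 2.45 and 0.135 CPM in A549 KO, against 3.59, 1.24 and 0.612 CPM in A549 WT (log2 -0.51, SE 0.98). For both genes the highest WT library was WT 1 and the highest KO library was KO 65, the pair that form the smaller library set. SNAI1 had 1.88, 3.86 and 4.09 CPM in A549 KO, against 5.12, 2.98 and 3.02 CPM in A549 WT (log2 -0.17, SE 0.407). SNAI2 was close to the detection limit throughout, with 13, 8 and 0 counts in A549 KO against 8, 4 and 11 in A549 WT. TWIST1 had 4.76, 8.44 and 12.9 CPM in A549 KO, against 8.18, 6.59 and 8.06 CPM in A549 WT (log2 0.21, SE 0.366). TWIST2 was the steadiest member, at 6.54, 7.9 and 8.53 CPM in A549 KO, against 7.94, 9.57 and 8.71 CPM in A549 WT (log2 -0.17, SE 0.21). The direction of ZEB1, ZEB2, SNAI1, SNAI2, TWIST1 and OVOL2 in A549 turned when single libraries were left out, so none of the 6 has a direction there.

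ESRP1 had 3.75, 0.636 and 4.4 CPM in A549 KO, against 0.287, 1.37 and 0.706 CPM in A549 WT. KO 16 and KO 66 stood above all WT libraries and KO 65 within them (log2 1.93, SE 0.813, adjusted p = 0.878, edgeR). OVOL2 had 2.15, 0.409 and 2.29 CPM in A549 KO, against 0.43, 1.83 and 2.73 CPM in A549 WT (log2 0.01, SE 0.798). Here the lowest libraries were again KO 65 and WT 1. ESRP2 had 1.92, 1.41 and 2.65 CPM in A549 KO, against 1.58, 3.02 and 3.49 CPM in A549 WT (log2 -0.40, SE 0.408). GRHL2 had 3, 0 and 1 counts in A549 KO and 6, 2 and 0 in A549 WT, a KO-over-WT ratio of 0.484 with a 95% counting interval of 0.107 to 1.81. Its relative GRHL3 was better covered, at 5.91 ± 3.21 CPM in A549 KO and 2.3 ± 0.759 CPM in A549 WT (SD, n = 3 each), and was not called.

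**Figure D3:**
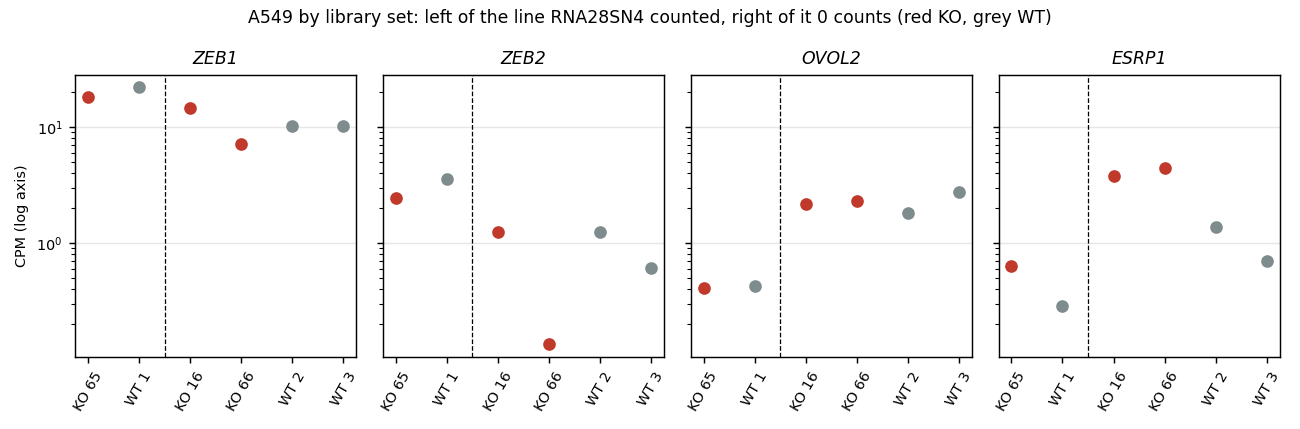
CPM on a log axis of 4 regulators in the 6 A549 libraries, with KO in red and WT in grey, and a dashed line between KO 65 and WT 1 on the left and the other 4 libraries on the right. ZEB1 is highest, and OVOL2 and ESRP1 are lowest, in the left pair, in KO as in WT.

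Within the sets the order of KO and WT was given without a test, since each comparison rests on 1 KO library. Between KO 65 and WT 1 the log2 differences were -0.27 for ZEB1, -0.53 for ZEB2, -0.06 for OVOL2 and 0.95 for ESRP1. KO 16 against the mean of WT 2 and WT 3 gave 0.52, 0.46, -0.06 and 1.84 for the same genes. KO 66 against that mean gave -0.50, -2.12, 0.03 and 2.06. ESRP1 was thus higher in each KO library than in the WT libraries of its own set, and OVOL2 differed by under 0.1 in all 3. Some of these differences rest on few counts. ZEB2 had 3 counts in KO 66, at the detection limit. In KO 65 and WT 1, ESRP1 had 14 and 6 counts and OVOL2 had 9 in each. The sets themselves were further apart for OVOL2: WT 1 lay 2.17 below the mean of WT 2 and WT 3 on the log2 scale, and KO 65 lay 2.22 below the mean of KO 16 and KO 66. ZEB2 ran the other way, 1.93 higher in WT 1 and 2.23 higher in KO 65. What separates the sets is not given in the labels, and its part in these values was not tested.

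The readouts of the switch in A549 did not pass the test either. CDH1 stood at 73.8 ± 13.8 CPM in A549 KO and 45.9 ± 14.9 CPM in A549 WT (log2 0.71, adjusted p = 0.88), EPCAM at 64.1 ± 24 CPM in KO and 23.4 ± 7.72 CPM in WT (log2 1.5, adjusted p = 0.649), and VIM at 667 ± 28.5 CPM in KO and 938 ± 176 CPM in WT (log2 -0.46, adjusted p = 0.89; SD, n = 3 each, edgeR). EPCAM was called by DESeq2 (adjusted p = 0.0433). None of the 24 tested epithelial targets or 25 tested mesenchymal targets was called, with medians of 0.707 and 0.25 beside 0.0179 over all genes. All 3 KO libraries were above all WT libraries for 7 of the 24 tested epithelial targets and 3 of the 25 tested mesenchymal targets, where 5.64% of all tested genes were. They were all below for none of the epithelial targets and 1 mesenchymal target, VIM, where 4.99% of all tested genes were.

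**Figure D4:**
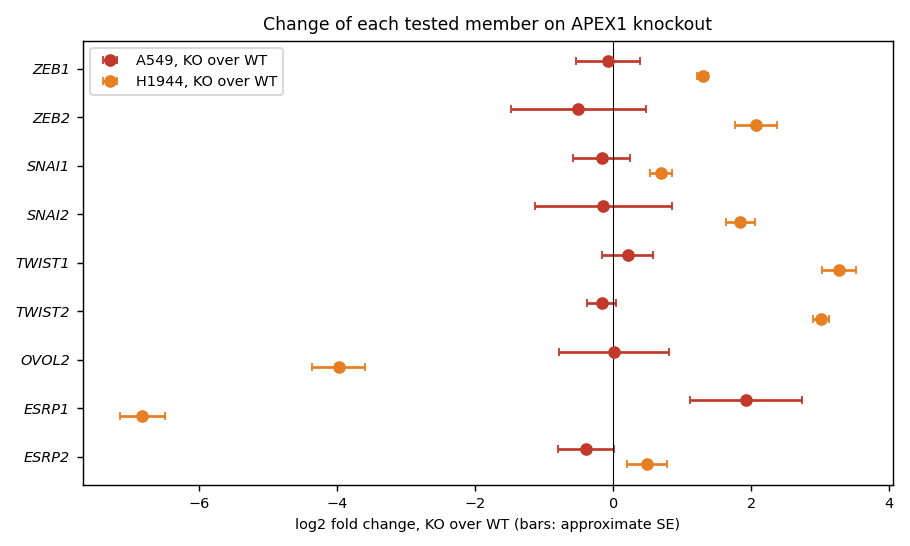
Log2 fold change on knockout of the 9 tested regulators, in A549 (red, KO over WT) and H1944 (orange, KO over WT), with bars for the approximate SE. The A549 values of all but ESRP1 lie within 0.51 of 0, and the H1944 values run from -6.82 for ESRP1 to 3.28 for TWIST1.

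The difference between the lines, the A549 change minus the H1944 change, was tested in 1 fit of all 10 libraries, where 6.95% of 17677 genes were called, 4.1% as higher and 2.85% as lower. Of the 9 tested members 3 passed. TWIST1 differed by -3.08 (SE 0.546, adjusted p = 0.0111), TWIST2 by -3.20 (SE 0.274, adjusted p = 0.000452) and ESRP1 by 8.69 (SE 1.35, adjusted p = 0.00617) on the log2 scale (edgeR). TWIST1 missed the threshold without H1944 KO 1, H1944 WT 1 or H1944 WT 2, at adjusted p-values of 0.0552 to 0.073, and ESRP1 without H1944 KO 2, at 0.0567 (log2 8.01), while without H1944 KO 1 its difference was 9.91. ZEB1 (-1.38), ZEB2 (-2.57), SNAI1 (-0.88), SNAI2 (-2.02), ESRP2 (-0.93) and OVOL2 (3.93) did not pass in this fit. OVOL2 was nearest, at an adjusted p of 0.0911, and passed with DESeq2 (0.015), without A549 KO 65 (0.0388), without A549 WT 1 (0.0482) and within the larger A549 set (0.00252). With the A549 library set as a block, an alternative added after seeing the data, OVOL2 (3.92, adjusted p = 0.00103) and ZEB1 (-1.33, adjusted p = 0.0438) both passed. The changes of ZEB2, SNAI1, SNAI2 and ESRP2 are not shown to differ between lines. Nor are those of OVOL2 and ZEB1 (adjusted p = 0.226 for ZEB1, edgeR), which passed only under the alternatives just given.

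Before knockout the lines differed in which regulators they expressed. Of the 9 tested members 4 were called between A549 WT and H1944 WT, where 41.2% of 16857 genes were, 20% as higher in A549 WT and 21.2% as lower. TWIST1 was 11.6-fold higher in A549 WT, at 7.61 ± 0.882 CPM (SD, n = 3), than in H1944 WT, at 0.653 ± 0.0022 CPM (SD, n = 2; log2 3.53, SE 0.241, adjusted p = 0.00102, edgeR). TWIST2 was 2.23-fold higher, at 8.74 ± 0.814 CPM in A549 WT and 3.91 ± 0.242 CPM in H1944 WT (adjusted p = 0.0083, edgeR). SNAI2 was 4.75-fold lower in A549 WT, at 0.361 ± 0.168 CPM, against 1.74 ± 0.122 CPM in H1944 WT (adjusted p = 0.017, edgeR). ESRP1 was 12.6-fold lower in A549 WT, at 0.789 ± 0.548 CPM, against 10.1 ± 0.971 CPM in H1944 WT (log2 -3.66, adjusted p = 0.0083, edgeR), and its log2 difference was -4.32 without A549 WT 2. Without H1944 WT 1 or H1944 WT 2, when that group is 1 library assumed to vary like A549, only TWIST1 of these 4 passed.

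ZEB1 was at the same mean in both lines, 14.1 ± 6.8 CPM in A549 WT and 14.1 ± 0.0625 CPM in H1944 WT, but the A549 libraries span both sides of H1944. Without A549 WT 1, 7 members passed, and ZEB1 (log2 -0.47, adjusted p = 0.000614) and SNAI1 (log2 -0.62, adjusted p = 0.00752) were then lower and ESRP2 (log2 1.06, adjusted p = 0.000902) higher in A549 WT (edgeR). ZEB2 (log2 1.32, adjusted p = 0.243) and OVOL2 (log2 -0.96, adjusted p = 0.307) did not pass in either case. Per kilobase of exon the A549 WT order was TWIST2 at 4.65, TWIST1 at 4.57, SNAI1 at 2.2, ZEB1 at 2.19, OVOL2 at 1.07, ESRP2 at 0.702, ESRP1 at 0.204, SNAI2 at 0.149, ZEB2 at 0.136 and GRHL2 at 0.0238 CPM. Neighbours in this order overlapped between libraries, except TWIST1 with SNAI1 and ESRP2 with ESRP1. In A549 KO the order began with TWIST1 at 5.22, TWIST2 at 4.08, ZEB1 at 2.07 and SNAI1 at 1.94, and TWIST2 and ZEB1 did not overlap. Of the epithelial targets 3 of 25 were higher and 12 lower in A549 WT, and of the mesenchymal targets 17 of 25 were higher and 1 lower. CDH1 was lower (log2 -2.17, adjusted p = 0.0052) and VIM higher (log2 1.47, adjusted p = 0.00767, edgeR). Over all tested genes 20% were called higher in A549 WT and 21.2% lower.

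Over the 10 libraries the log2 levels of OVOL2 and ESRP1 ran together (Pearson r = 0.892), as did those of ZEB1 and ZEB2 (0.869), while TWIST2 and ESRP1 (-0.867), ZEB1 and OVOL2 (-0.849) and ZEB2 and OVOL2 (-0.816) ran opposite. These are descriptions over points that share cell line and library set, with no test. Among 13149 or 13150 other genes of at least 5 CPM in some group, the most alike to ZEB1 were UGGT2 (0.994), EIF5A2 (0.98) and C2CD2 (0.978), and to ZEB2 SNX25 (0.943), RASA2 (0.934) and MOB1A (0.933). Most like TWIST1 were FSCN1 (0.992), which encodes the actin-bundling protein fascin, MIR1915HG (0.982) and ASTN2 (0.98). Most like ESRP1 were SEMA4G (0.965), DENND1C (0.958) and PRRG2 (0.952). The closest genes to the other tested members were TWIST2 with P3H1 (0.978), SNAI1 with DOCK3 (0.963), SNAI2 with TPD52 (0.98), OVOL2 with CYREN (0.958) and ESRP2 with COA8 (0.982).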

How the data were processed

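The deposited tables hold raw counts per gene symbol, 1 table per line, with no normalization by the authors. Per the submitters' processing notes the tools were Trim Galore 0.5.0, HISAT2 2.1.0, featureCounts 1.6.4 and DESeq2, with the hg38 build; the strand setting, the gene annotation and how multi-mapped reads were handled are not given in the sources used here. A549 columns 65, 16 and 66 carry no genotype and were taken as KO, the only labelled group without columns; which labelled replicate each one is remains unknown. The 10 members and all gene lists were chosen with earlier results of these data known.

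Each comparison was fitted over all genes in edgeR 4.0.16 (R 4.3.3), with its robust quasi-likelihood test, after filterByExpr (minimum count 10) and TMM scaling, and called at a Benjamini-Hochberg adjusted p under 0.05. A549 (3 against 3), H1944 (2 against 2) and the WT lines were fitted on their own libraries, and the line difference on all 10. SEs are approximate: each absolute log2 fold change was divided by the root of its F value. DESeq2 1.42.0 and limma 3.58.1 (voom) were alternatives. The code was tested on simulated data. Genes named beside the members were up to 5 of each list with the smallest adjusted p, family relatives, CDH1, EPCAM and VIM, and the 3 genes most alike to a member; exceptions are marked, and a few list genes are not reported here. Within-set differences used log2 CPM with a prior count of 2. Levels per kilobase used the summed exon length of GENCODE v29. Replicates of a group were compared by chi-square over genes: the closest pair, A549 WT 2 and WT 3, gave 1.89 per gene, and the H1944 pairs 2.87 (KO) and 3.26 (WT), above sampling noise, so each library was counted. The other A549 pairs were much further apart. WT 1 gave 225 with WT 2 and 223 with WT 3, and KO 65 gave 256 with KO 16 and 222 with KO 66. KO 16 and KO 66 gave 126, so libraries of the same set also differed widely.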

Additional observations from a re-analysis of the deposited data

Results flagged for a closer look

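For 18 genes named in the report the change on knockout differed between the lines by the test of the difference itself (A549 change minus H1944 change, edgeR over all 10 libraries, both changes in log2). Among the members these were TWIST1 at -3.08 (adjusted p = 0.0111), TWIST2 at -3.20 (0.000452) and ESRP1 at 8.69 (0.00617). Among the epithelial targets they were CDH1 at 5.40 (0.000307), EPCAM at 7.66 (0.000398), MAL2 at 8.03 (0.000519), S100A14 at 5.56 (0.00777) and LSR at 4.68 (0.0026). CDH1, EPCAM and LSR had positive fitted changes in A549, and MAL2 and S100A14 averaged under 1 CPM in both A549 groups.

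Of the mesenchymal targets VIM differed by -2.25 (adjusted p = 0.00155), SPARC by -6.25 (0.0101), COL6A1 by -2.75 (0.00961) and MMP14 by 5.45 (0.0189). MMP14 fell in H1944 and had 15.1 ± 11.3 CPM in A549 KO and 1.58 ± 0.225 CPM in A549 WT (SD, n = 3 each). The factors were EHF at 2.88 (0.0425), ELF3 at 2.48 (0.00111), FOXC1 at 1.19 (0.0393) and FOXA2 at 7.83 (0.00793), the last with 0 counts in H1944 KO, so that its fitted value depends on the prior count. The splicing factor RBM47 differed by 1.61 (0.0372) and CD44 by -1.82 (0.00983). Of all genes 6.95% were called in this comparison. The genes beside the members were mostly named for a small adjusted p in H1944 or after their values were seen. The H1944 change is part of the difference tested, so their number cannot be read against that share.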

How the results depend on the processing

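The count of members called was 0 in A549 under all 14 alternatives and 8 in H1944 under 10 of 11, the exception being 4 with all 10 libraries in one fit, where 2522 genes in all were called. With the replicate block H1944 gave 8 members and 11228 genes. Over 16626 genes the log2 difference of KO 1 and KO 2 correlated by 0.0132 with that of WT 1 and WT 2. No shared effect of the replicate number was thus seen in the counts, and the labels do not say whether same-numbered libraries were handled together. For A549 no paired analysis was possible, because its KO columns carry no matching replicate number. Between the WT lines 4 members became 7 without A549 WT 1, which is also the larger A549 set alone, and 1 to 7 over all single libraries left out. The line difference gave 3 members, 2 to 4 with single libraries left out, and 5 with the A549 library set as a block, added after seeing the data; ZEB1 (-1.33, adjusted p = 0.0438) and OVOL2 (3.92, 0.00103) were gained.

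Directions turned for values that did not pass as reported; of the turned values below 1 passed, ZEB1 between the WT lines. In A549 OVOL2, at 0.01, gave -0.04 with RLE size factors (-0.0404), DESeq2 (-0.0396), no filter (-0.0436) and all 10 libraries (-0.0427), -0.03 with voom (-0.0341), -0.02 in the larger set (-0.0230) and -0.01 with the set as a block (-0.00928). ZEB1 gave 0.12 in the larger set and 0.00279 with the block, and SNAI1 0.00151 in the larger set. Leaving out single A549 libraries gave -0.34 to 0.44 for ZEB1, -1.36 to 0.50 for ZEB2, -0.35 to 0.17 for SNAI1, -0.97 to 0.43 for SNAI2, -0.19 to 0.49 for TWIST1 and -0.44 to 0.55 for OVOL2. Between the WT lines ZEB1 gave -0.0146 by library size, -0.0992 with voom, -0.47 in the larger set (adjusted p = 0.000614) and -0.47 to 0.20 with single libraries left out. The causes were not tested. Over all genes the A549 calls ran from 0 to 2 except 125 by DESeq2 and 16 with all 10 libraries.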
